A study of Mus musculus with 19 samples.

Results

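Cilium transport and motility genes were taken as the protein-coding mouse genes with a GENCODE M21 symbol of Ift, Bbs, Dnah, Dnai, Cfap or Tekt followed by a digit, plus Ccdc39, Ccdc40 and Foxj1. Of 76 such genes, 75 had a value of at least 10 normalized reads in at least 3 libraries, and these are 75 of the 23973 genes tested. They were 14 Ift, 8 Bbs, 15 Dnah, 30 Cfap and 5 Tekt genes besides the 3 single genes. The annotation held no symbol of Dnai followed by a digit, and Dnaic symbols such as Dnaic2 fell outside the rule. The gene just outside was Cfap97d1, listed at 0 to 10.4 normalized reads. Just inside stood Tekt3, which reached 10 in 17 of 19 libraries and ranged from 5.53 to 131. The rule used names and a minimum level only, not a difference between groups, but it was chosen with earlier results of these data known.

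RNA-seq of microglia-enriched brain homogenate had been made from 19 mice, 1 library each. HEM mice overexpressed human α-synuclein, full-length and wild-type in sequence, from an X-chromosomal transgene with the murine Thy-1 promoter, and WT mice were the controls. The background of both was B6D2F1/J, and there were 8 HEM and 4 WT mice of 13 months and 4 HEM and 3 WT mice of 3 months. Thy-1 promoter cassettes are used to drive expression chiefly in neurons, so the transgene is not aimed at microglia or at ciliated cells, and the sources used here do not give the sex or litter of the mice.

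A cilium is built and supplied by intraflagellar transport. Its trains hold both IFT-B and IFT-A complexes, and kinesin drives them to the tip and dynein back. IFT-B is needed mainly for the way to the tip and IFT-A for the way back, while the BBSome escorts membrane proteins. Motile cilia add an axoneme with dynein arms, radial spokes, a central pair, a molecular ruler and proteins inside the doublet microtubules, and Foxj1 is the transcription factor that switches on this motility programme. In the brain, multiciliated ependymal cells line the ventricles, choroid plexus epithelial cells also carry tufts of cilia, and microglia are not a ciliated cell type.

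Depth was 63.3 to 95.8 M recovered reads per library for HEM at 13 months, 93.2 to 124.5 M for WT at 13 months, 74.7 to 112.9 M for HEM at 3 months and 83.0 to 106.8 M for WT at 3 months. All 10 microglia markers were detected in every group, with a mean log2(value + 1) level of 14.96 to 16.50 per library. Markers of ciliated cell types were present too, with a mean log2 level of 14.1 to 15.7 for 13 choroid plexus markers and 8.04 to 10.3 for 15 ependymal markers (Mia, of the latter list, at 1.40 to 39.1 normalized reads). Of 7 spermatid markers, from another kind of cell rich in axonemal transcripts, 1 passed the minimum, Prm1, at 0 to 14.0 normalized reads. In bulk libraries such as these, fewer cells of a type and less RNA per cell cannot be told apart. The 6 libraries highest in ependymal markers were HEM libraries 4 and 13 and WT library 6 at 13 months and all 3 WT libraries at 3 months. The 6 highest in choroid plexus markers were all 4 WT libraries at 13 months, HEM library 7 at 3 months and WT library 1 at 3 months.

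Values below are the authors' normalized reads, counts per gene divided by a size factor for each library. For HEM at 13 months they are given as the lowest, median and highest of 8 libraries, and for the other groups library by library in the order of their numbers (6, 7, 8 and 9 for WT at 13 months, 1, 3, 4 and 7 for HEM at 3 months, 1, 3 and 5 for WT at 3 months). Changes are differences of mean log2(value + 1) with their standard error, fitted with limma-trend over all 19 libraries, and a gene was called at a Benjamini-Hochberg adjusted p under 0.05 over all 23973 genes tested. Each library is a mouse of its own, so p-values measure the spread between these mice.

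At 13 months 12 of 22 transport genes, both arm assembly genes and 7 other Cfap and Tekt genes were called lower in HEM than in WT mice. Of 15 dynein heavy chains 0 were called lower, which for so few genes is near the 7.3% of all genes tested. Of the 75 genes 22 were called, 21 lower and 1 higher in HEM, against 12.2% of all genes tested called in either direction, 7.3% called lower and 4.87% called higher. Among tested protein-coding genes alone, 9.98% were called lower. The median change of the 75 was -0.26, beside 0.03 for all genes tested, and 57 of the 75 had a negative change. For 20 of them every HEM library lay below every WT library, a separation seen for 3.98% of all genes tested, and none was separated the other way (2.69% of all genes). Of the 21 genes called lower, 16 were separated in this way. With each single library left out in turn, 16 to 23 of the 75 genes were called, beside 7.12% to 13.7% of all genes.

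**Figure D1:**
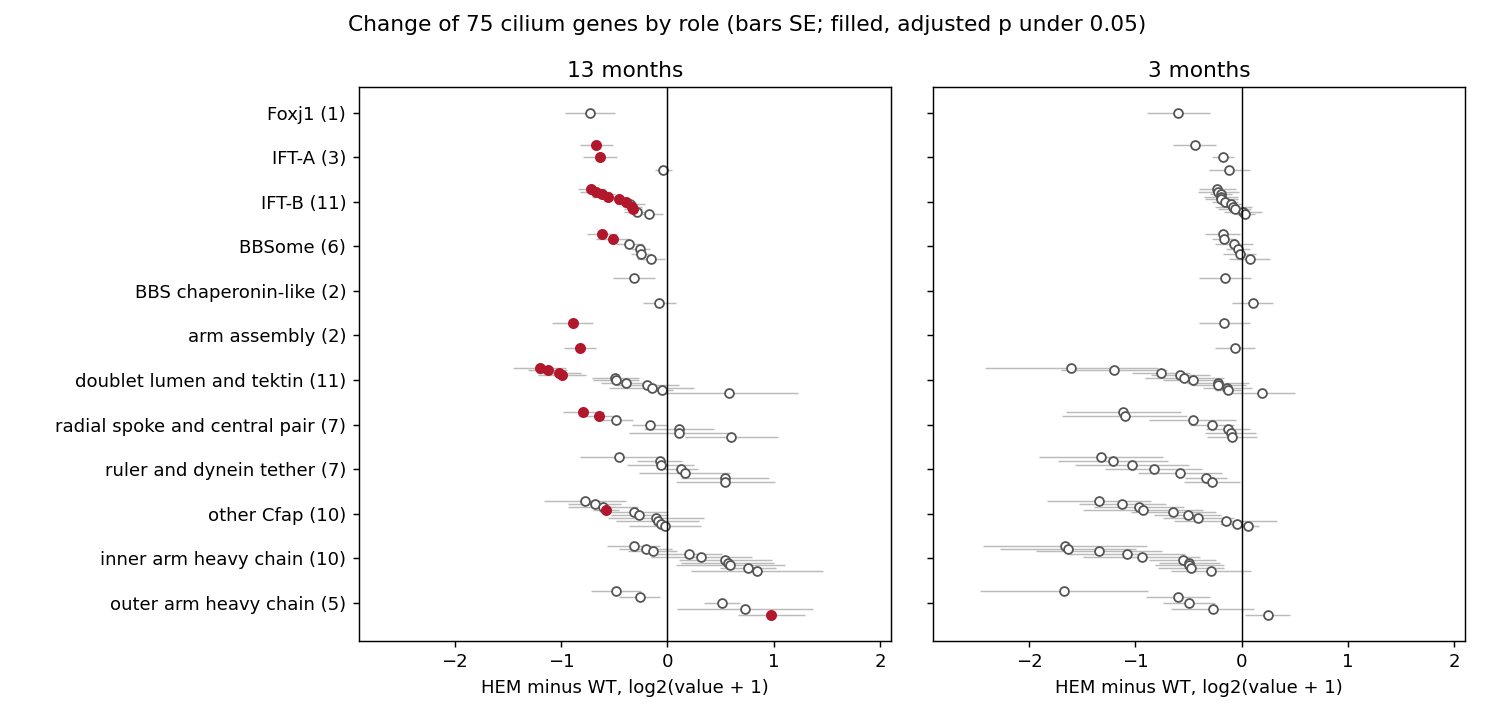
Change in HEM against WT mice at 13 months (left) and 3 months (right) for the 75 genes, grouped by role with the number of genes in brackets. The x axis is the difference of mean log2(value + 1), points are genes, bars are standard errors and filled points have an adjusted p under 0.05. At 13 months the filled points are 21 genes on the left of 0, mostly in the transport, arm assembly and doublet lumen rows, and Dnah8 on the right. At 3 months no point is filled and 68 of the 75 lie left of 0.

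Foxj1 (ENSMUSG00000034227, mm10 chromosome 11, 116330704 to 116335399, minus strand), the regulator at the head of the motility programme, had the highest level per kilobase of exon of the 75. It stood at 3938, 6612 and 14175 in HEM at 13 months, at 12617, 10662, 9770 and 12231 in WT at 13 months, at 7270, 6053, 8180 and 8997 in HEM at 3 months and at 12156, 12731 and 9623 in WT at 3 months. At 13 months 1 HEM library, number 13, lay above all WT libraries and the other 7 below them, so the groups overlapped. At 3 months all 4 HEM libraries lay below all 3 WT libraries. The 13-month change was -0.73 ± 0.24, which missed the threshold (limma adjusted p = 0.0521). It passed when HEM library 13 or HEM library 4 was left out, and with all libraries kept under a minimum value of 50 in 3 libraries. The 3-month change was -0.60 ± 0.30, with an unadjusted limma p of 0.0579, and was not called. The age changes of Foxj1 were small in both genotypes, -0.15 ± 0.24 in HEM and -0.02 ± 0.30 in WT.

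**Figure D2:**
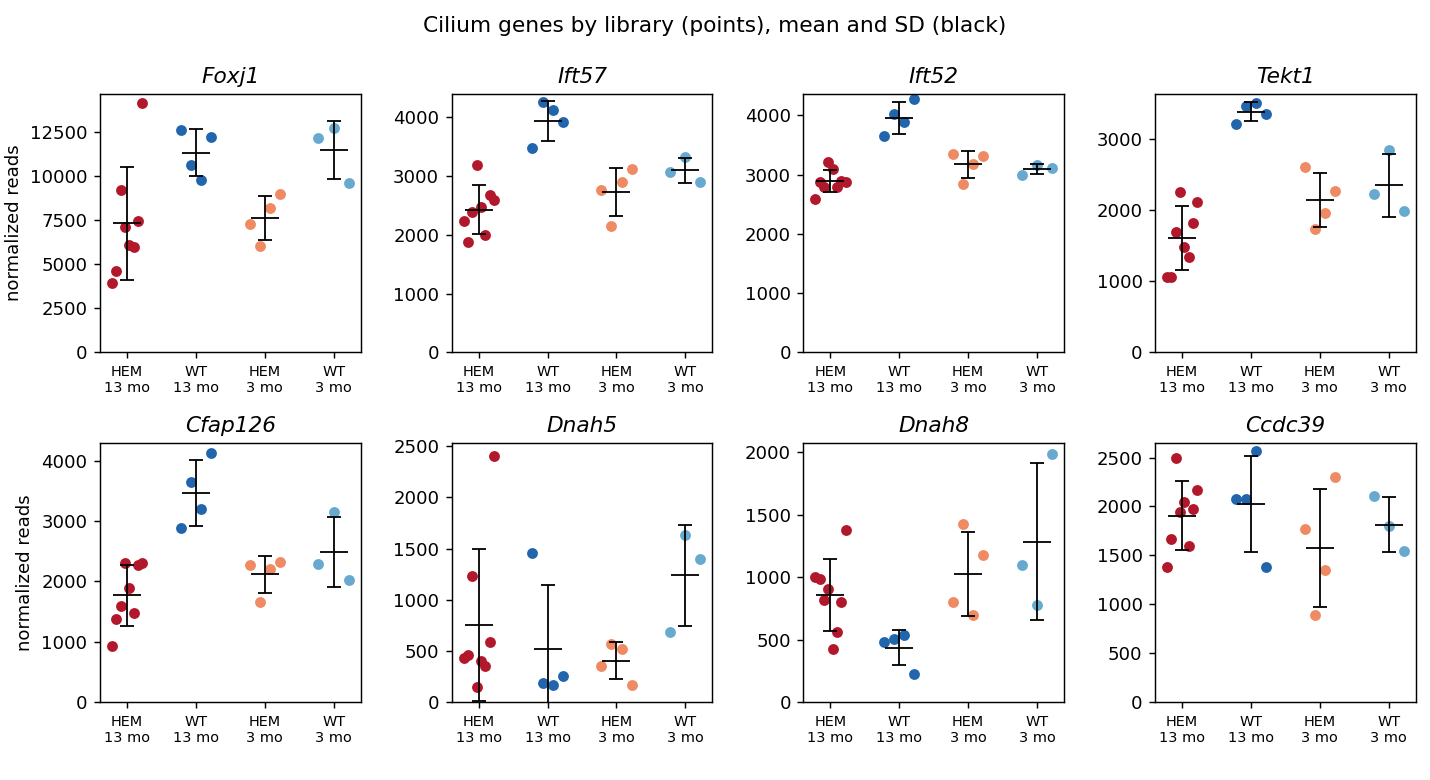
Normalized reads of 8 genes in each library (points, coloured by group), with the group mean and SD in black, on linear axes that start at 0. Ift57, Ift52, Tekt1 and Cfap126 have all WT libraries at 13 months above all HEM libraries of that age, while Dnah5 has a single high WT library at 13 months and single high HEM libraries, and Ccdc39 overlaps between all groups.

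The IFT-B complex, needed for transport towards the tip, had 8 genes lower in HEM at 13 months. Of its 11 measured subunits 8 were called lower, beside 7.3% of all genes tested, and 0 higher, beside 4.87%. All 11 had negative changes, with a median of -0.39. Ift57 (chromosome 16, 49699233 to 49765126, plus strand), a peripheral subunit, stood at 1873, 2427 and 3188 in HEM and at 3466, 4243, 4108 and 3919 in WT at 13 months. Every HEM library lay below every WT library, and the change was -0.71 ± 0.12 (limma adjusted p = 0.00235). Ift52 (chromosome 2, 163017354 to 163046141, plus strand), a core subunit, stood at 2591, 2876 and 3211 in HEM and 3646, 4031, 3883 and 4284 in WT. Its groups did not overlap either, and its change of -0.45 ± 0.07 (limma adjusted p = 0.00176) had the smallest p and the smallest standard error of the 75 genes. Ift74, which with Ift81 forms the tubulin-binding module, stood at 1749, 2318 and 3303 in HEM and at 3348, 4107, 3915 and 3683 in WT. The gap between the groups was narrow, and Ift74 changed by -0.67 ± 0.14 (adjusted p = 0.00551), and Ift46, at 2552, 3499 and 4445 against 4673, 5808, 4958 and 5847, by -0.62 ± 0.12 (adjusted p = 0.004). Ift20, the subunit also found at the Golgi and the most abundant IFT-B gene per kilobase, stood at 3713, 4002 and 4343 in HEM and at 4524, 5990, 5311 and 4523 in WT. It did not overlap either, and it fell by less, 0.33 ± 0.09 on the log2 scale (adjusted p = 0.0198). Ift80 (-0.39), Ift22 (-0.56) and Ift172 (-0.32), a large peripheral subunit, made up the 8, and of these only Ift22 overlapped between the groups. The 3 not called were Ift81 (-0.35), Ift88 (-0.28) and Ift27 (-0.18). Without WT library 7 or 8, Ift20 and Ift22 lost their call, as did Ift80 without WT library 8 and Ift172 without WT library 9.

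In the smaller IFT-A complex, needed for the way back, 2 of 3 measured subunits were called lower, beside 7.3% of all genes tested. Ift122 stood at 2189, 3253 and 4113 in HEM and at 3936, 4748, 4854 and 5354 in WT at 13 months, where only HEM library 7 reached into the WT range. Its change was -0.67 ± 0.15 (limma adjusted p = 0.00805). Ift43, the most abundant of the 3 per kilobase, changed by -0.63 ± 0.16 (adjusted p = 0.0152) with no overlap. Ift140 was among the 3 steadiest of the 75 genes, with an SD of 0.13 log2 units over the 19 libraries, and its change was -0.04 ± 0.08.

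Among the BBSome subunits, 2 of 6 were called lower, beside 7.3% of all genes tested. They were Bbs1 (-0.61 ± 0.14, limma adjusted p = 0.00878) and Bbs5 (-0.51 ± 0.15, limma adjusted p = 0.0361). Bbs1 stood at 1711, 2324 and 2815 in HEM and at 2879, 3379, 3554 and 3967 in WT at 13 months, a narrow gap with no overlap. Bbs9, Bbs2 and Bbs4 also had no HEM library at or above a WT library, yet their changes of -0.36, -0.25 and -0.25 missed the threshold (limma adjusted p = 0.0731, 0.0749 and 0.0895). Bbs2 was the most abundant subunit per kilobase. Bbs5 kept its call in 12 of the 19 fits that left out a library. Of the chaperonin-like Bbs10 and Bbs12, which help assemble the BBSome, 0 of 2 were called. In all, 22 of 22 Ift and Bbs genes had a negative change and 12 were called lower.

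Both measured factors that preassemble dynein arms in the cytoplasm were called lower at 13 months, beside 7.3% of all genes tested. Cfap300 (chromosome 9, 8021672 to 8042823, minus strand) stood at 516, 860 and 1142 in HEM and at 1393, 1721, 1765 and 1345 in WT at 13 months. The groups did not overlap, and the change was -0.89 ± 0.19 (limma adjusted p = 0.00554). Cfap298 (chromosome 16, 90925809 to 90935114, minus strand) stood at 2520, 3518 and 4591 in HEM and at 5289, 6600, 5924 and 6835 in WT. It changed by -0.82 ± 0.15 (adjusted p = 0.00283), also with no overlap. Opposite-strand genes cover 53.6% of its exon bases, and since no strand setting is given in the sources used here its reads cannot be told apart from theirs.

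Proteins inside the doublet microtubules, among them the tektin filaments, had 4 of 11 measured genes called lower at 13 months and 0 higher. Among all genes tested 7.3% were called lower and 4.87% higher. Tekt1 (chromosome 11, 72344722 to 72362442, minus strand), the most abundant of them per kilobase, stood at 1060, 1593 and 2263 in HEM and at 3209, 3471, 3502 and 3357 in WT at 13 months. Every WT library lay well above every HEM library, and the change was -1.12 ± 0.18 (limma adjusted p = 0.00208). Tekt5 had the lowest change of the 75 genes, -1.20 ± 0.25 (adjusted p = 0.00461), at a low level of 112, 212 and 338 against 345, 519, 504 and 552. Cfap126, also known as Flattop, stood at 923, 1743 and 2301 in HEM and at 2880, 3644, 3198 and 4128 in WT, and Cfap52 at 708, 1213 and 1985 in HEM and at 2049, 2706, 2372 and 3006 in WT. Neither overlapped between the groups, and Cfap126 changed by -1.02 ± 0.21 (adjusted p = 0.00437) and Cfap52 by -0.99 ± 0.23 (adjusted p = 0.00788). Tekt2, Tekt4, Cfap20, Cfap45, Cfap53 and Cfap161 had changes between -0.49 and -0.05 and were not called. Tekt3 had a change of 0.58 ± 0.65, with an SD of 1.18 log2 units over the libraries.

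In the radial spoke and central pair group 2 of 7 were called lower, beside 7.3% of all genes tested. These were Cfap206 and Cfap61, which sit at the base of the radial spokes. Cfap206 stood at 635, 1113 and 1526 in HEM and at 1909, 1871, 1946 and 1865 in WT at 13 months. The 4 WT libraries were nearly equal and all above HEM, with a change of -0.79 ± 0.19 (limma adjusted p = 0.0108). Cfap61 changed by -0.64 ± 0.19 (adjusted p = 0.0318) and kept its call in 13 of the 19 fits that left out a library. Among 10 Cfap genes without a shared role, 1 was called lower, a count near the 7.3% of all genes tested. It was Cfap36, a partner of the small GTPase Arl3 (-0.57 ± 0.12, limma adjusted p = 0.00554). Its groups overlapped by a single HEM library: 3435, 4018 and 5807 in HEM against 5800, 7054, 6370 and 5751 in WT.

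The ruler and dynein tether group had 0 of 7 genes called at 13 months, beside 12.2% of all genes tested, and 4 of 7 changes positive. Ccdc39 and Ccdc40 together form the ruler that sets the axonemal repeat. Ccdc39 stood at 1380, 1958 and 2496 in HEM and at 2075, 2078, 2564 and 1378 in WT, overlapping fully, with a change of -0.07 ± 0.21. Ccdc40 stood at 313, 488 and 1825 in HEM and at 1195, 245, 277 and 349 in WT, with a change of 0.55 ± 0.47. Its high libraries were HEM 13 and 4 and WT 6. Cfap43, the most abundant of the group per kilobase and part of the tether of an inner dynein, stood at 2988, 4043 and 6150 in HEM and at 4617, 3084, 3889 and 3461 in WT, with a change of 0.13 ± 0.16. Opposite-strand exons of Ttc14 cover 16.9% of the exon bases of Ccdc39.

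The dynein heavy chains are the motors of the arms. Of 15 measured, 0 were called lower at 13 months and 1 higher, counts near the 7.3% and 4.87% of all genes tested. Of the changes 10 were positive, and the median was 0.51. Over the 19 libraries their SD was 0.36 to 1.21 log2 units, beside 0.13 to 0.38 for Ift and Bbs genes. The part of this wider spread in the lack of calls was not tested. The 10 inner arm chains had 0 calls, and Dnah6, the most abundant of them per kilobase, stood at 1316, 3069 and 4792 in HEM and 4249, 3126, 3930 and 3066 in WT, a full overlap. Of the 5 outer arm chains, Dnah9 was the most abundant, with a change of -0.48 ± 0.24 (adjusted p = 0.22). Dnah5 (chromosome 15, 28203752 to 28472052, plus strand), an outer arm motor often mutated in primary ciliary dyskinesia, stood at 146, 445 and 2406 in HEM and at 1461, 181, 163 and 258 in WT. A single WT library, number 6, thus stood apart from the other 3, and the change was 0.73 ± 0.63.

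Dnah8, an outer arm chain known mainly from sperm flagella, was the only one of the 75 called higher. It stood at 428, 859 and 1378 in HEM and at 477, 501, 533 and 227 in WT at 13 months, with HEM library 8 inside the WT range. The change was 0.98 ± 0.31 (limma adjusted p = 0.0469), just under the threshold. The call held in 6 of 19 fits that left out a library and in 6 of 14 other settings, with edgeR and voom among those without it. Leaving out any of the 4 WT libraries of 13 months ended it, as did leaving out HEM library 1, 3, 4, 7, 12 or 13 of that age, HEM library 1 or 7 of 3 months or WT library 1 of 3 months. Dnah17, the other sperm-type outer arm chain, stood at 229, 280.1 and 420 in HEM and at 209, 186, 191 and 261 in WT, with a change of 0.51 ± 0.17 (adjusted p = 0.0535). Dnah7a, Dnah7b and Dnah7c are near-identical copies on chromosome 1 whose reads the counting may have split, so their separate values are uncertain.

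Exon length and level per kilobase varied among the 75 genes. The 21 genes called lower had a median exon length of 2.66 kb (1.52 to 12.4 kb), and the 15 heavy chains one of 14.97 kb (12.0 to 26.8 kb). Per kilobase of exon the heavy chains ranged from 11.9 to 240.2 normalized reads, beside a median of 224.8 for the 75 genes. With the trend on length and GC content removed within each library, 25 of the 75 genes were called lower and 2 higher, beside 13.0% of all genes called in either direction.

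**Figure D3:**
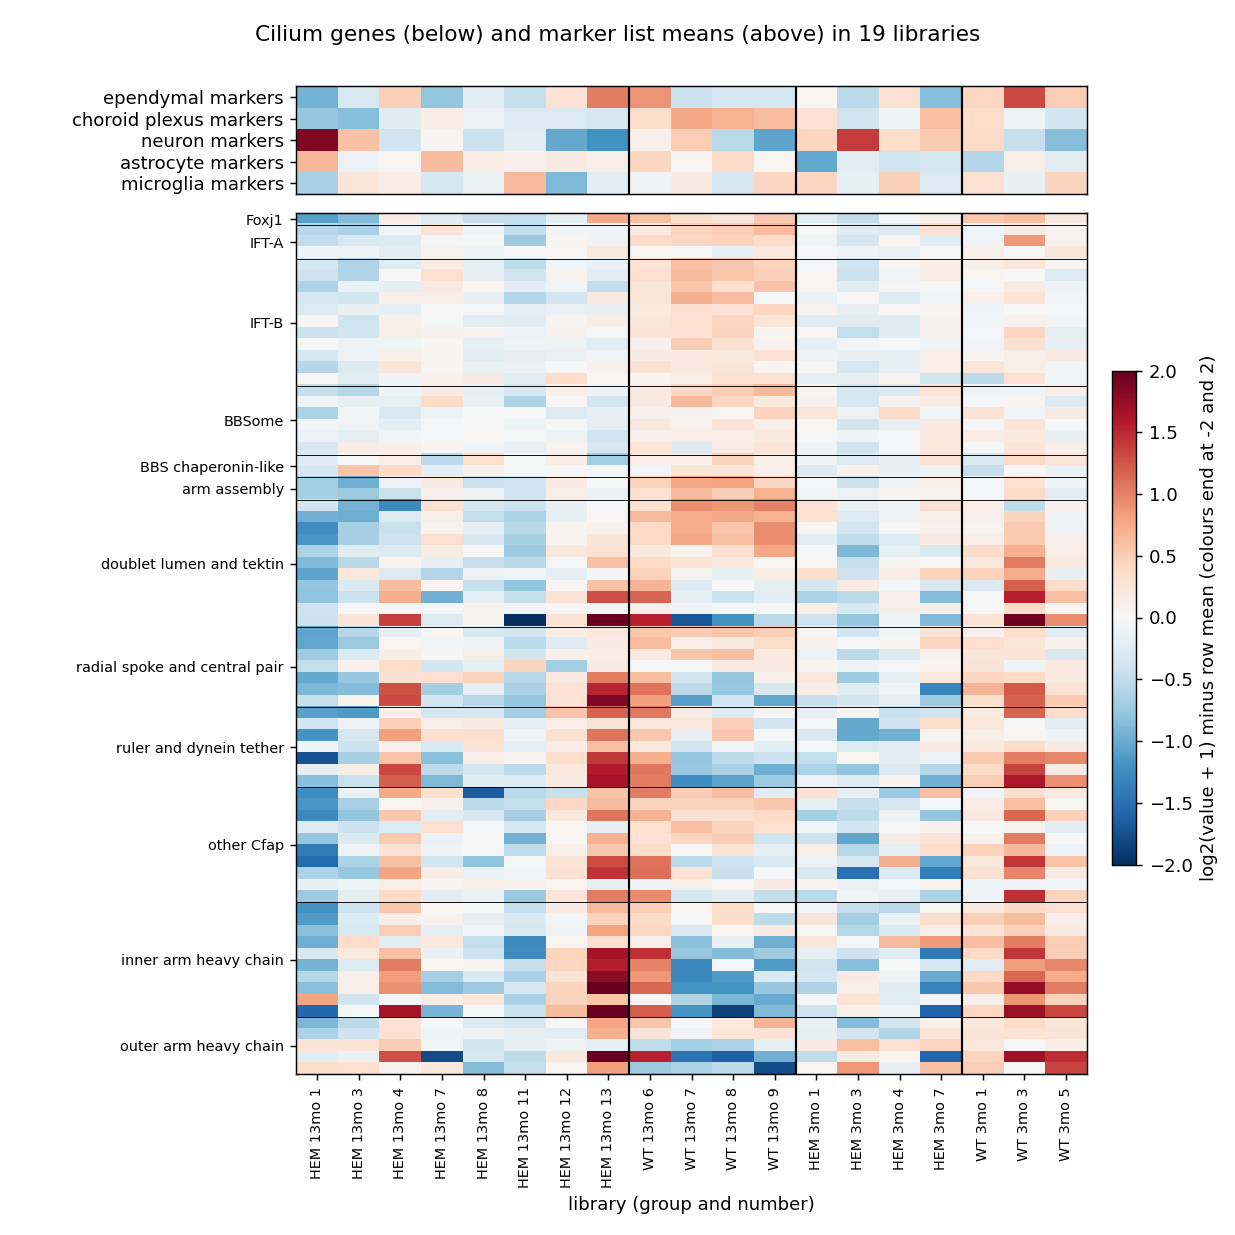
Level of each gene in each of the 19 libraries, as log2(value + 1) minus the mean of its row, with genes in rows grouped by role and ordered within a role by their 13-month change. Mean levels of 5 marker lists are above on the same colour scale, which ends at -2 and 2, and vertical lines part the 4 groups. Most IFT, BBSome, arm assembly and upper doublet lumen rows are red across the 4 WT libraries at 13 months, as is the choroid plexus row, but those of Ift140 and Bbs7 are not. Many heavy chain and ruler rows are red in HEM 4 and 13 and WT 6 at 13 months and in WT 3 at 3 months, as is the ependymal row.

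Single libraries were compared by rank. For 24 genes, at least 5 of their 6 highest libraries were among the 6 highest in ependymal markers, and 10 of these were heavy chains while 0 were Ift or Bbs genes. Dnah1, Dnah2, Dnah5, Dnah10, Ccdc40, Cfap46 and Cfap73 shared all 6. The ependymal list itself holds genes of motile cilia, among them Sntn, Pifo and Spaca9, so shared ranks with the heavy chains are partly built in. These are counts of the same libraries and carry no test.

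The marker lists themselves moved with these groups. Beside the counts that follow, 7.3% of all genes tested were called lower at 13 months and 4.87% higher. At 13 months 12 of 13 choroid plexus markers were called lower in HEM, with a median change of -0.94, while 2 of 15 ependymal markers were called lower (Pifo and 1110017D15Rik) and the list's median was 0.20. The mean level of the choroid plexus list was 14.1 to 15.1 in HEM and 15.3 to 15.7 in WT libraries at 13 months, without overlap. Neuron, microglia and oligodendrocyte markers had 0 calls of 10, 10 and 8, astrocyte markers had 1 of 9, called lower, while 11 of 11 neutrophil markers, 9 of 10 cell cycle genes and 2 of 7 erythroid markers were called higher. The part of choroid plexus and blood cell content in the values of the 75 genes was not tested.

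**Figure D4:**
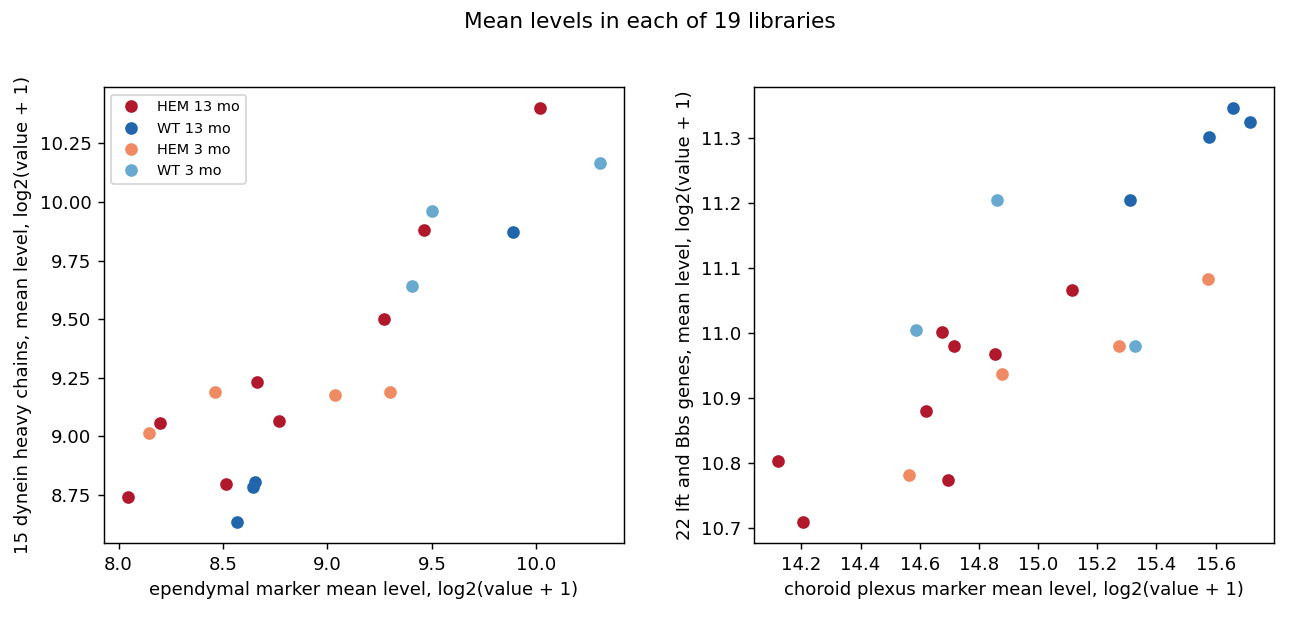
Mean log2(value + 1) level of the 15 dynein heavy chains against that of the ependymal markers (left), and of the 22 Ift and Bbs genes against that of the choroid plexus markers (right), with a point for each library, coloured by group. The ependymal markers include genes of motile cilia. On the left the 6 libraries highest on the y axis are 2 HEM and 1 WT library of 13 months and all 3 WT libraries of 3 months. On the right the 4 WT libraries of 13 months lie at the top right, at 15.3 to 15.7 on the x axis and 11.2 to 11.3 on the y axis. HEM library 7 and WT library 1 of 3 months lie in that x range, at 15.57 and 15.33, but lower, at 11.08 and 10.98. WT library 3 of 3 months reaches 11.20 on the y axis at 14.86 on the x axis.

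Other cilium genes outside the 75 were counted in the same way at 13 months. Their lists were written down for this work with earlier results of these data known. Among all genes tested 7.3% were called lower and 4.87% higher at this age. Of 41 further genes of the motile axoneme and its assembly 15 were called lower and 0 higher, with a median of -0.39. They included the nucleoside kinase-like Nme5 of the radial spokes (-0.99 ± 0.19, limma adjusted p = 0.00324). Of 29 further transport genes 9 were called lower, among them the small GTPases Arl3 (-0.76 ± 0.12, adjusted p = 0.00176), which releases lipidated cargo in the cilium, and Arl6, which recruits the BBSome (-0.86 ± 0.15, adjusted p = 0.00242). Of 20 transition zone genes, whose proteins gate the cilium base, 5 were called lower, including B9d1 (-0.82). Among 13 regulators of multiciliation 1 was called lower, Trp73, and 3 higher, Ccno, Myb and Plk4. Plk4 also acts in centriole duplication of dividing cells, and Myb in blood progenitors. Cell cycle and neutrophil markers were called higher too, and the part of such cells in the changes of these 3 genes was not tested. Ccno changed by 1.87 ± 0.40 (adjusted p = 0.00576) and Plk4 by 1.05 ± 0.23 (adjusted p = 0.00594).

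Promoters were examined for the DNA motifs of RFX factors, which bind the X-box of ciliary genes, and of forkhead factors such as Foxj1. RefSeq (GRCm38.p6) gave windows of 250 bases before the start for 63 of the 75 genes, and both strands were searched. The short X-box motif GTTGCC (or its reverse complement GGCAAC) was in 19 of 63 genes, 30.2%, beside 12.4% of 13130 tested protein-coding genes and 11.8% of all 27025 genes with a window. The long X-box, GTTNCC and GGNAAC with 2 bases between them, which can contain the short motif, was in 2 of 63 (3.17%, beside 0.533% of the tested genes). The forkhead core GTAAACA (or TGTTTAC) was in 4 of 63, Cfap20, Cfap43, Dnah17 and Tekt3 (6.35%, beside 2.87%). The short motif was in 4 of 19 genes called lower at 13 months, in 4 of 14 heavy chains and in 11 of 30 others. A match is a run of letters and not a bound site. The windows below are up to 30 bases, 5′ to 3′ on the strand of the gene, with the motif in capitals, and show the genes called lower that carry it, then Bbs7, with the other long X-box, and Dnah10 as a heavy chain that carries the short motif.
Cfap298 (chr16:90935016-90935045, minus strand, touching an annotated exon, long X-box): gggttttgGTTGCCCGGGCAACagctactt
Cfap300 (chr9:8042980-8043009, minus strand, before the gene): aacacaaagactGGCAACctccttccattt
Ift57 (chr16:49699195-49699224, plus strand, before the gene): gaggcgggtctgGTTGCCgtggtgaccggc
Tekt1 (chr11:72361900-72361929, minus strand, in an annotated intron): tcttctaactagGGCAACgttgcgtccgtc
Bbs7 (chr3:36613489-36613518, minus strand, before the gene, long X-box): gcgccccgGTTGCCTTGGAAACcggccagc
Dnah10 (chr5:124725053-124725082, plus strand, before the gene): cgcgctggcgccGTTGCCcaggtccccgtt

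At 3 months no gene passed the test, and the genes whose libraries separated were mostly heavy chains, ruler genes and other Cfap genes. By limma 0 of the 75 were called, as were 0% of all 23973 genes, and by edgeR, DESeq2 and voom 0 of the 75 as well (DESeq2 called 6 genes in all). At an unadjusted p under 0.05 there were 13 of the 75, beside 3.85% of all genes tested. The median change was -0.28, beside 0.01 for all genes, and 68 of 75 changes were negative. For 23 genes every HEM library lay below every WT library, beside 2.78% of all genes tested, and 0 were separated the other way, beside 3.08%. These 23 were 8 of 15 heavy chains, 5 of 7 ruler and tether genes, 8 further Cfap genes, Tekt3 and Foxj1, and included 0 of 22 Ift and Bbs genes. By role the median change was -0.83 for the ruler and tether genes, -0.75 for the inner arm and -0.50 for the outer arm heavy chains, -0.16 for IFT-B and -0.05 for the BBSome.

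Dnah10 (chromosome 5, 124725085 to 124834308, plus strand), an inner arm heavy chain, stood at 541, 908, 704 and 331 in HEM and at 1207, 2828 and 1723 in WT at 3 months. All HEM libraries were below all WT libraries, and the change was -1.63 ± 0.64, with an unadjusted limma p of 0.0201, and was not called. Dnah5 stood at 354, 569, 519 and 169 in HEM and at 685, 1630 and 1403 in WT at 3 months, also without overlap (-1.67 ± 0.79). The smallest limma p-values downward were those of the doublet lumen gene Cfap53 (-0.76 ± 0.27, unadjusted p = 0.012), Cfap58 (-1.34 ± 0.49) and Cfap77 (-1.12 ± 0.41), none of them called. Cfap77 stood at 292, 320, 426 and 269 in HEM and at 527, 1026 and 638 in WT. Upward they were those of Dnah17 (0.25 ± 0.21), Cfap97 (0.06 ± 0.10) and Tekt5 (0.19 ± 0.31). Transport genes overlapped at this age: Ift57 stood at 2755, 2153, 2886 and 3106 in HEM and at 3061, 3317 and 2890 in WT.

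Ependymal markers moved beside the heavy chains at 3 months. Their median change was -0.80 with 0 of 15 called, and the mean level of the list was 8.14 to 9.30 in HEM and 9.41 to 10.3 in WT libraries, without overlap. Choroid plexus markers had a median of 0.14 and overlapping levels of 14.6 to 15.6 and 14.6 to 15.3. Neuron markers had a median of 1.05 in HEM, with 0 of 10 called. Since the ependymal list includes genes of motile cilia, it is not a measure of ependymal cells apart from their cilia. The part of ependymal tissue in the 3-month values was not tested.

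Age was compared within each genotype, and these comparisons share libraries with those between genotypes. In HEM mice 0 of 75 genes were called between 13 and 3 months, beside 1.62% of all genes by limma, and 7 had an unadjusted p under 0.05, beside 16.6% of all genes. The other tools also called 0 of the 75, beside 1.55% of all genes by edgeR, 5.44% by DESeq2 and 6.12% by voom. The median was 0.01, and 0 genes separated the ages, beside 1.36% of all genes lower and 1.44% higher at 13 months. The smallest p-values upward were those of Cfap58 (0.998 ± 0.391), Cfap44 (0.71 ± 0.31) and Cfap100 (0.78 ± 0.42), and downward those of Tekt1 (-0.45 ± 0.18), Bbs9 (-0.30 ± 0.13) and Cfap61 (-0.45 ± 0.19), with adjusted p-values from 0.199 to 0.357.

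In WT mice limma called 0 of 75 genes between 13 and 3 months, beside 0.709% of all genes. At an unadjusted p under 0.05 there were 21, beside 15.5% of all genes, DESeq2 called 7 (5.09% of all genes), voom 8 (5.24% of all genes) and edgeR 0 (0.430% of all genes). All 11 IFT-B changes were positive (median 0.28) and 14 of 15 heavy chain changes negative (median -0.99). Beside them, the 13 choroid plexus markers all had positive changes (median 0.63), and the medians were -0.82 for ependymal, -1.12 for neutrophil and -1.17 for erythroid markers, with 0 called in each of these lists. Their part in the age changes was not tested. In 13 genes every WT library at 13 months lay above every WT library at 3 months, beside 8.83% of all genes. In 4 of the 75 genes the order was the reverse, a count near the share of 6.46% over all genes. These 4 were heavy chains. Ift52 stood at 3646, 4031, 3883 and 4284 at 13 months and at 3002, 3165 and 3108 at 3 months (0.36 ± 0.09, limma adjusted p = 0.0563), and DESeq2 and voom called it. Ift74 (0.58 ± 0.18) and Cfap36 (0.48 ± 0.15) followed. Dnah8 stood at 477, 501, 533 and 227 at 13 months and at 1093, 774 and 1984 at 3 months (-1.53 ± 0.39, limma adjusted p = 0.0638), followed by Dnah14 (-1.11 ± 0.33) and Dnah7c (-1.18 ± 0.38).

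The level of Ift52 in HEM at 3 months, 3345, 2849, 3185 and 3316, overlapped that of WT at 3 months, so the order of group means was WT at 13 months first (3961 ± 267, SD, n = 4), then HEM at 3 months (3173 ± 228, n = 4), WT at 3 months (3092 ± 82.4, n = 3) and HEM at 13 months (2893 ± 191, n = 8). The WT group at 13 months was separate from the other 3 groups, and the others overlapped their neighbours. Tekt1 had the same group at the top, 3385 ± 133, over 2351 ± 446 in WT at 3 months, 2141 ± 380 in HEM at 3 months and 1608 ± 452 in HEM at 13 months. Dnah5 had another order, 1239 ± 493 in WT at 3 months, 752 ± 739 in HEM at 13 months, 516 ± 631 in WT at 13 months and 403 ± 181 in HEM at 3 months, with neighbours that overlapped.

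The difference between the genotype effects at the 2 ages was tested directly. By limma 0 of 75 genes were called, as were 0% of all genes, and 25 had an unadjusted p under 0.05, beside 14.8% of all genes. DESeq2 called 4 (Dnah14, Ift52, Tekt1 and Tekt5), beside 3.92% of all genes, voom called these and Ift74, beside 3.31%, and edgeR called 0, beside 0%. The counts called by DESeq2 and edgeR are near the shares over all genes. Those by voom and at the unadjusted p lie above their shares, and no test compared them. All 15 heavy chains had a positive difference (median 1.25), a genotype change more positive at 13 than at 3 months, and 13 of 14 Ift genes a negative difference (median -0.23). Beside them, all 13 choroid plexus markers had a negative difference (median -1.10), and the medians were 0.99 for ependymal, 2.67 for neutrophil and 1.77 for cell cycle markers, with 0 called in each of these lists. Their part in the differences was not tested. The smallest p-values downward were those of Ift52 (-0.49 ± 0.11, limma adjusted p = 0.0843), Tekt5 (-1.39 ± 0.40) and Tekt1 (-0.99 ± 0.30), and upward those of Dnah14 (1.25 ± 0.42), Dnah10 (2.23 ± 0.82) and Cfap100 (1.75 ± 0.66).

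Levels varied unequally among the 75 genes over the 19 libraries. Dnah5, Dnah12 and Tekt3 had the largest SD, 1.21, 1.19 and 1.18 log2 units, and Cfap97, Ift140 and Bbs4 the smallest, 0.10, 0.13 and 0.16. Ift and Bbs genes ranged from 0.13 to 0.38 and heavy chains from 0.36 to 1.21. The steadiest gene, Cfap97, stood at 1696, 1983 and 2106 in HEM and at 1825, 2089, 1964 and 2149 in WT at 13 months, with a change of -0.06 ± 0.08. Dnah12 stood at 136, 395 and 1629 in HEM and at 939, 176, 110 and 218 in WT at 13 months, with its highest libraries again HEM 13 and 4 and WT 6.

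The protein-coding genes whose levels were most like those of Foxj1 over the 19 libraries were Ccdc60 and Ccdc65 (Pearson r = 0.947 each), 2410004P03Rik (0.944), Drc3 (0.940), Rsph4a (0.931), Gm11992 (0.930), Ppp1r36 (0.926), Gm28729 (0.925), Dnaic2 (0.923) and Spef1 (0.923). None is among the 75. Among the genes of the set other than Foxj1 the highest r was 0.906 (Cfap45) and the lowest -0.352 (Dnah17), with a median of 0.605, beside 0.012 for all tested protein-coding genes. These points share libraries, size factors and tissue make-up, and the correlations are descriptions with no test.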

How the data were processed

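RNA-seq was made from microglia-enriched brain homogenate of 19 mice, with RNA from an AllPrep column kit and NEBNext Ultra II RNA libraries, per the labels' protocols. Per the submitters' processing notes, the authors used Trimmomatic, HISAT2, featureCounts and DESeq2 on mm10, and their versions and the strand setting are not given in the sources used here. The deposited values are a signal per gene, counts divided by 1 size factor per library. The values gave whole reads for 100% of entries within a tolerance of 0.01, which yields the depth of each library and allows count tests as alternatives.

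Genes that reached a value of 10 in 3 libraries or more were tested with limma 3.58.1 (limma-trend, robust, R 4.3.3) on log2(value + 1) with a pseudocount of 1, in 1 model of 4 groups, 2-sided, with Benjamini-Hochberg adjustment over all 23973 genes. A fold change on this scale understates the change of low genes. Alternatives were edgeR 4.0.16 and DESeq2 1.42.0 on the recovered reads, voom, other filters and scalings, a length and GC correction, reads thinned to 60 M, and leaving out libraries. Symbols, exons and lengths came from GENCODE M21. The script was tested on simulated data.

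The genes of the set, the marker and companion lists and the tests were chosen with earlier results of these data known. Genes named were Foxj1, Ccdc39 and Ccdc40, up to 10 called genes with the smallest p in each direction, or 3 where none was called, the gene with the highest level per kilobase in each role, the 3 most and 3 least variable genes, and the 2 companion genes with the smallest p per list, some of which are not reported here. Other names complete a group's count or give its range and were chosen after their values were seen. Groups came from the labels' genotype and age, and the replicate numbers of the labels were not used to pair mice.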

Additional observations from a re-analysis of the deposited data

Results flagged for a closer look

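Each named gene was examined within each group of 4 or 8 libraries for a highest or lowest library that stood far from the others relative to the group's range. Of 114 such groups of values 8 held one, and chance gives about 1 in 20 for independent groups not picked for their spread. That rate is no comparison here, since Dnah5, Dnah12 and Tekt3 were named for their large SD and most of the 8 come from the same library. The libraries concerned were WT library 6 at 13 months for 6 of the 8 and HEM library 13 at 13 months for 1. In WT library 6, Ccdc40 stood at 1195 normalized reads beside 245 to 349 in the other 3 WT libraries of that age, and Cfap100 at 1384 beside 341 to 425. The heavy chains Dnah5, Dnah10 and Dnah12 stood there at 1461 beside 163 to 258, at 1859 beside 362 to 491, and at 939 beside 110 to 218. Tekt3 stood at 97.99 beside 9.33 to 22.2. Dnah10 stood at 3390 in HEM library 13 beside 457 to 1581 in the other 7 HEM libraries. Both libraries were among the 6 highest in ependymal markers. Bbs9 stood at 4130 in WT library 9 of 13 months, beside 3082 to 3197.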

How the results depend on the processing

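At 13 months 22 genes were called, and 16 to 27 under all alternatives except the replicate block, beside 5.42% to 17.1% of all genes. With the replicate number of the labels as a block (11 numbers, 5 residual degrees of freedom), 0 were called, as were 0 of all genes tested. Same-numbered samples did not deviate together: their correlations lay between -0.068 and 0.173, so the numbers were not taken as pairs. DESeq2 called 27 (24 lower, 3 higher), beside 16.6% of all genes, and edgeR 21 lower and 0 higher, beside 12.1% of all genes. At 3 months and for age in HEM all alternatives called 0. For age in WT, limma called 0. A minimum value of 50 and the length and GC correction called 1 each, beside 1.58% and 0.905% of all genes. Leaving out 3 libraries that stood apart in an earlier analysis (HEM 1 and 11 at 13 months, HEM 3 at 3 months) called 1, beside 1.07%. DESeq2 called 7 and voom 8. Leaving out single libraries called 0 to 2 (2 without WT library 6, beside 2.18%, and 1 without HEM library 7, beside 1.95%, both of 13 months). For the difference between ages, DESeq2 called 4, voom 5, and leaving out single libraries 0 to 1 (1 without HEM library 7 or WT library 6, beside 1.31% and 1.17% of all genes). The cause was not tested.

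Of 59 results on named genes, 9 values changed sign, none of them called. At 13 months Ccdc39 was 0.0412 without the 3 libraries and -0.246 to 0.0524 with single libraries left out, Ift140 0.0136 with voom, 0.0650 with the replicate block and -0.104 to 0.0287 with single libraries left out, and Cfap97 0.00416 with the block. At 3 months Cfap97 was -0.00943 with the length and GC correction and -0.00447 with the block, and Tekt5 -0.0158 to 0.302 with single libraries left out. Of the 22 called genes, Dnah8, Bbs5, Cfap61, Ift20, Ift22, Ift80 and Ift172 lost their call in at least 1 fit without a single library. The median change of the 75 genes was -0.32 to -0.21 at 13 months and -0.41 to -0.23 at 3 months in these fits, and with the block -0.58 at 3 months and -0.43 for age in WT. Groups of 3 and 4 mice, and HEM libraries shallower than WT at 13 months, limit the precision. With reads thinned to 60 M, 20 genes were called at 13 months, beside 11.9% of all genes.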
